A study of Rattus norvegicus with 36 samples.

Results

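The mRNA signals of 10 liver enzymes were followed across the doses of a rat gavage study: the epoxide hydrolases Ephx1 and Ephx2, the aldehyde dehydrogenases Aldh1a1, Aldh1a7, Aldh1b1, Aldh2, Aldh3a1, Aldh3a2 and Aldh9a1, and the aldehyde reductase Akr7a3. A member was read from probe sets whose array annotation gave its symbol and no other. This yielded 1 probe set for each of 9 of the 10 members, out of 31042 probe sets tested, and Aldh1a7 was not analysed here. The rats were male Harlan Sprague Dawley animals, 7 weeks of age at the start, and all had NTP-2000 diet and tap water. On each of 5 days they were gavaged with corn oil at 5 ml/kg, alone (vehicle) or carrying decabromodiphenyl oxide (decaBDE), a brominated flame retardant. The lowest dose was 0.1 mg/kg, the next were 0.959 and 9.59 mg/kg, and the highest were 95.9 and 959 mg/kg. Left liver lobe RNA was taken 1 day after the last dose and hybridised to 36 single-colour Affymetrix arrays, 6 per group. Whether every array stands for a separate animal is not stated in the labels, so the p-values measure the spread between arrays, which may be partly technical.

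Epoxide hydrolases add water to reactive epoxides and turn them into diols. Ephx1, the microsomal enzyme, acts on epoxides that cytochromes P450 make from foreign compounds, and Ephx2, the soluble enzyme, acts mainly on epoxides of fatty acids. Aldehyde dehydrogenases oxidise aldehydes from alcohols, lipids, amines and drugs to carboxylic acids, whereas Akr7a3, known in rat as aflatoxin aldehyde reductase, reduces them to alcohols. In rat liver Ephx1 is a classic target of the drug sensors CAR and PXR and of the stress sensor NRF2, and Aldh3a1 is a classic target of the dioxin receptor AhR.

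Promoter windows were taken from RefSeq (build GRCr8), each running from 250 bases before to 50 bases after an annotated transcription start. The table matched 6 of the 10 members with 7 windows, and Ephx2, Aldh1a7, Aldh2 and Aldh3a1 had none in it. The windows of Ephx1 and Aldh1a1 are shown because these members moved with dose. Ephx1 window 1 is chr13:95275803-95276102, Ephx1 window 2 is chr13:95263068-95263367, both read on the minus strand, and the Aldh1a1 window is chr1:227537370-227537669 on the plus strand. Capitals mark matches to 3 motifs searched on both strands: AGGTCA, the hexamer shared by many nuclear receptor sites, TGACNNNGC, the core of the antioxidant response element, and GCGTG, the core of the dioxin response element.
Ephx1 window 1: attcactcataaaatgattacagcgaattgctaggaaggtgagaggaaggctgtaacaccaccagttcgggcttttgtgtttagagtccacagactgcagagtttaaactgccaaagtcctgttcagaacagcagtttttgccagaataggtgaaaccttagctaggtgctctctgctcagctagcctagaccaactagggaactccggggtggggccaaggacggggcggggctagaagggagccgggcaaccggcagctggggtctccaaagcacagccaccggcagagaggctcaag
Ephx1 window 2: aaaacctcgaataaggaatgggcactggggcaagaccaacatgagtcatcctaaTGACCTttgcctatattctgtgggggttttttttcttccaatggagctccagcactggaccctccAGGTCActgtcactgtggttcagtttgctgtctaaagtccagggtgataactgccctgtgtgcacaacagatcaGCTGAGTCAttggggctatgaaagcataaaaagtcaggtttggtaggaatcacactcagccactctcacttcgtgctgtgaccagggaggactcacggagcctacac
Aldh1a1 window: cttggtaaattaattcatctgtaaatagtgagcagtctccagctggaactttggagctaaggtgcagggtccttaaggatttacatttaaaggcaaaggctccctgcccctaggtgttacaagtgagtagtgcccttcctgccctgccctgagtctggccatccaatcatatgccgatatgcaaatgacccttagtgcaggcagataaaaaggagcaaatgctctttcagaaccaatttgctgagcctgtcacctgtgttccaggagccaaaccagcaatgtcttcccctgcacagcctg
Ephx1 window 2 held 3 matches that did not overlap each other. AGGTCA stood on the minus strand with its first base at -196 and on the plus strand at -131, counted from the start site in the gene's direction, and TGACNNNGC stood on the minus strand at -57. Ephx1 window 1, the Aldh1a1 window and the Aldh1b1 window held 0 matches. GCGTG occurred at -180 and -108 in the Aldh3a2 window, at -57 in the Akr7a3 window, and at -135, -114 and -45 in the Aldh9a1 window, where AGGTCA and TGACNNNGC also overlapped each other at 27. Of 33469 windows of 300 bases in the table, 16.2% held AGGTCA, 12.1% held TGACNNNGC and 29.7% held GCGTG. A match describes the letters only.

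Of the 9 measured members, Ephx1 and Aldh1a1 rose with dose, none fell, and the other 7 passed in no comparison. At 9.59 mg/kg 2 of 9 members passed an adjusted p of 0.05 against vehicle, both higher, where 0.116% of all probe sets passed and 0.106% did so upwards. At 95.9 mg/kg 1 of 9 passed, against 0.0902% of all probe sets (0.0838% upwards), and at 959 mg/kg 1 of 9, against 0.11% (0.103% upwards). That member was Ephx1 each time. At 0.959 mg/kg 0 of 9 passed in the limma fit, against 0.029%, and 2 of 9 (Ephx1 and Aldh1a1) had an unadjusted p under 0.05, against 6.06%. At 0.1 mg/kg 0 of 9 passed, against 0%, and 0 of 9 had an unadjusted p under 0.05, against 3.79%. The lowest dose thus gave no member a call at either level.

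By a straight line over dose rank 2 of 9 members passed, against 0.393% of all probe sets (0.335% upwards), and by the F-test for any dose 2 of 9, against 0.135%. These were Ephx1 and Aldh1a1 again. With dose in mg/kg in place of dose rank neither slope passed, with adjusted p-values of 0.188 for Ephx1 and 0.893 for Aldh1a1. Between 959 and 95.9 mg/kg 0 of 9 passed in the limma fit, against 0.00644%, and 0 of 9 had an unadjusted p under 0.05, against 4.78%. Between 959 and 9.59 mg/kg 0 of 9 passed, against 0.00644%, and 1 of 9 (Aldh3a2, -0.14) had an unadjusted p under 0.05, against 7.14%. Neither of these comparisons thus gave a member a call, and 95.9 was not compared with 9.59 mg/kg.

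Counting arrays in place of p-values, 3 of 9 members (Ephx1, Aldh1a1 and Akr7a3) had all 6 arrays at 9.59 mg/kg above every vehicle array, against 0.435% of all probe sets. Ephx1 alone did so at 95.9 and at 959 mg/kg, against 0.332% and 0.283%. The 6 measured aldehyde dehydrogenases had a median log2 difference from vehicle of 0.03 at 9.59 mg/kg and -0.04 at 959 mg/kg, beside 0.01 and 0.0042 over all genes.

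Ephx1 rose at the 3 upper doses, with group means of 13.18, 13.14 and 13.18 in order of dose. On the log2 RMA scale its lowest, median and highest array were 12.55, 12.79 and 12.93 with vehicle, 12.65, 12.78 and 12.90 at 0.1 mg/kg, and 12.78, 13.01 and 13.15 at 0.959 mg/kg. They were 12.99, 13.21 and 13.36 at 9.59 mg/kg, 13.03, 13.13 and 13.23 at 95.9 mg/kg, and 12.99, 13.18 and 13.34 at 959 mg/kg. All 6 arrays of each of the 3 upper doses therefore lay above every vehicle array, 4 of 6 did so at 0.959 mg/kg, and the 0.1 mg/kg arrays lay within the vehicle range.

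The means were 13.18 ± 0.15 at 9.59 mg/kg, against 12.78 ± 0.14 with vehicle (SD, n = 6 each), a log2 difference of 0.40 (SE 0.07) or 1.32-fold. In the limma fit the adjusted p was 0.00466. At 95.9 mg/kg the difference was 0.36, with a 95% interval of 0.22 to 0.50 and an adjusted p of 0.0182. At 959 mg/kg it was 0.39, with an interval of 0.25 to 0.54 and an adjusted p of 0.00504. Ephx1 thus passed at each of the 3 upper doses. The 959 mg/kg arrays differed from the 95.9 mg/kg arrays by 0.03 (interval -0.11 to 0.18) and from the 9.59 mg/kg arrays by -0.0034 (interval -0.15 to 0.14), and neither difference passed. At 95.9 mg/kg the call was lost, with adjusted p-values up to 0.0716, when vehicle replicate 1, vehicle replicate 5, 95.9 mg/kg replicate 1 or 95.9 mg/kg replicate 4 was left out, and with 0.079 without the 2 arrays of high Ephx2, replicate 4 of this group and replicate 1 of the 0.1 mg/kg group. At each of the 3 upper doses it was lost when only the arrays of the 2 groups compared were fitted, with adjusted p-values of 0.193, 0.113 and 0.12 in order of dose.

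Of the lower doses, 0.959 mg/kg gave Ephx1 a log2 difference of 0.21 (interval 0.06 to 0.35) that did not pass across all probe sets (adjusted p = 0.756). At 0.1 mg/kg the difference was -0.0037 (interval -0.15 to 0.14). The slope over dose rank, counting vehicle as 0 and 959 mg/kg as 5, was 0.09 (SE 0.01) log2 units per step with an adjusted p of 8.45e-06, and the F-test for any dose gave an adjusted p of 0.000212. All 5 dose comparisons used the same 6 vehicle arrays. In whole liver RNA, a change in the share of cells of a type and a change in RNA per cell cannot be told apart.

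**Figure D1:**
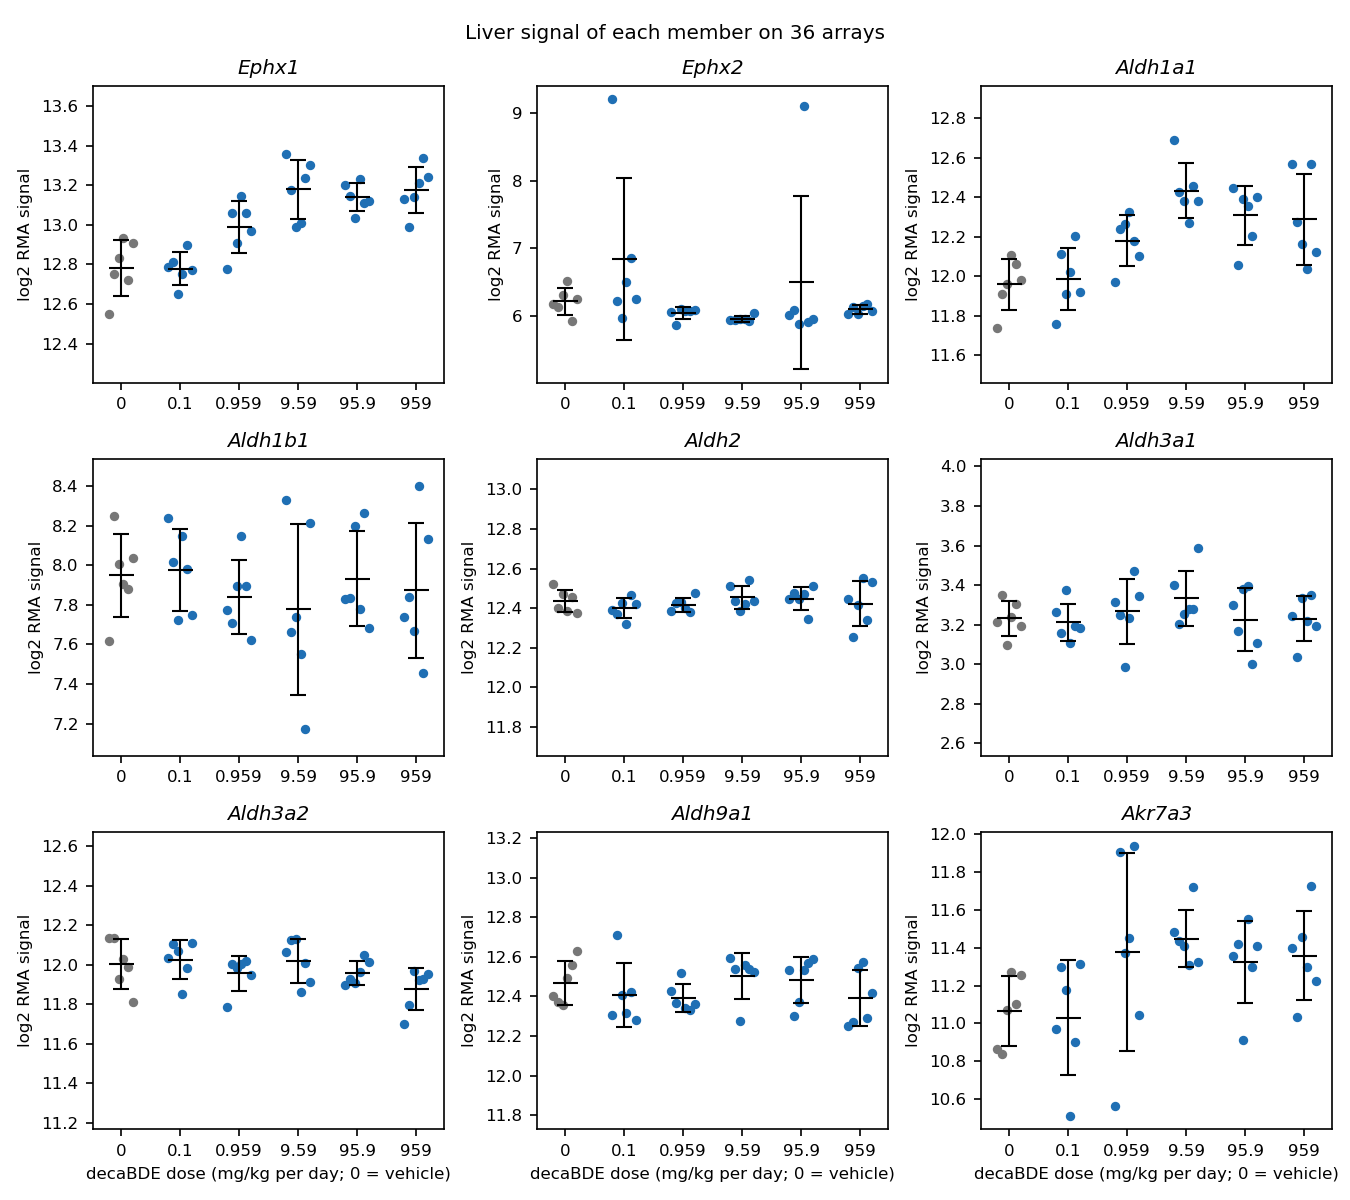
Log2 RMA signal (vertical axes, each panel with its own range) of the 9 measured members on 36 arrays by daily dose of decaBDE in mg/kg (horizontal axes, 0 for vehicle). Points are arrays and bars are group means with SD (n = 6). All 6 Ephx1 arrays at 9.59, 95.9 and 959 mg/kg lie above every vehicle array, and 2 Ephx2 arrays lie above 9 while the other 34 lie below 7.

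Ephx2, the other epoxide hydrolase, passed in no comparison, and its differences at 0.1 and 95.9 mg/kg turned on 2 arrays. Its signal was 9.20 in replicate 1 of the 0.1 mg/kg group and 9.10 in replicate 4 of the 95.9 mg/kg group, whereas the other 34 arrays ran from 5.87 to 6.86. The lowest, median and highest array were 5.92, 6.21 and 6.51 with vehicle, 5.97, 6.38 and 9.20 at 0.1 mg/kg, and 5.87, 6.07 and 6.11 at 0.959 mg/kg. They were 5.93, 5.94 and 6.05 at 9.59 mg/kg, 5.88, 5.99 and 9.10 at 95.9 mg/kg, and 6.03, 6.10 and 6.18 at 959 mg/kg. Apart from the 2 high arrays, every group overlapped vehicle.

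The spread of Ephx2 around its group means (residual SD 0.72) was larger than that of 99.7% of the probe sets tested. Its log2 differences from vehicle were 0.62 at 0.1, -0.17 at 0.959, -0.26 at 9.59, 0.28 at 95.9 and -0.12 at 959 mg/kg, each with an SE of 0.39. The SD was 1.20 at 0.1 and 1.28 at 95.9 mg/kg, and between 0.04 and 0.20 in the other groups. The fit pools the groups, so the 2 arrays widened the SE at the other doses too, and a small difference there could be missed. Without replicate 1 the difference at 0.1 mg/kg was 0.15, and without replicate 4 that at 95.9 mg/kg was -0.24. Ephx1 in those arrays was 12.79 and 13.23, inside or at the edge of the range of its own group. The medians of the 2 arrays over all probe sets (5.18 and 5.15) lay within the range of the 36 arrays (5.12 to 5.21). Of limma's array weights, where the lowest was 0.517, replicate 1 of the 0.1 mg/kg group had the highest (1.39). Replicate 4 of the 95.9 mg/kg group had 0.972.

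Aldh1a1, the cytosolic enzyme that oxidises retinal to retinoic acid, passed at 9.59 mg/kg. Its lowest, median and highest array were 11.74, 11.97 and 12.11 with vehicle, 11.76, 11.97 and 12.20 at 0.1 mg/kg, and 11.97, 12.21 and 12.33 at 0.959 mg/kg. The same 3 values were 12.27, 12.40 and 12.69 at 9.59 mg/kg, 12.05, 12.37 and 12.45 at 95.9 mg/kg, and 12.04, 12.22 and 12.57 at 959 mg/kg. At 9.59 mg/kg all 6 arrays lay above every vehicle array, at 95.9 and at 959 mg/kg 5 of 6 did, and at 0.959 mg/kg 4 of 6 did.

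The Aldh1a1 mean at 9.59 mg/kg was 12.43 ± 0.14, against 11.96 ± 0.13 with vehicle (SD, n = 6 each), a log2 difference of 0.47 (SE 0.09) or 1.39-fold with an adjusted p of 0.0116. This call was lost, with an adjusted p of 0.0665, when replicate 1 of the 9.59 mg/kg group was left out. At 95.9 mg/kg the difference was 0.35 (interval 0.17 to 0.53, adjusted p = 0.186) and at 959 mg/kg it was 0.33 (interval 0.15 to 0.51, adjusted p = 0.253), neither past the threshold. The 959 mg/kg arrays differed from the 9.59 mg/kg arrays by -0.14 (interval -0.33 to 0.04), which did not pass (adjusted p = 0.775), so a lower level at 959 mg/kg was not shown. At 0.959 mg/kg Aldh1a1 differed from vehicle by 0.22 (interval 0.04 to 0.40, adjusted p = 0.783) and at 0.1 mg/kg by 0.03. Its slope over dose rank was 0.08 (SE 0.02) per step with an adjusted p of 0.00297. The F-test for any dose gave an adjusted p of 0.0199. This became 0.0572 after another quantile normalization, 0.052 with the replicate number as a block and 0.0645 without the 2 arrays of high Ephx2.

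Akr7a3 passed in no comparison, although its group means stood above vehicle from 0.959 mg/kg on. The lowest, median and highest array were 10.84, 11.09 and 11.27 with vehicle, 10.51, 11.07 and 11.31 at 0.1 mg/kg, and 10.56, 11.41 and 11.94 at 0.959 mg/kg. They were 11.31, 11.42 and 11.72 at 9.59 mg/kg, 10.91, 11.38 and 11.55 at 95.9 mg/kg, and 11.03, 11.35 and 11.73 at 959 mg/kg. All 6 arrays at 9.59 mg/kg lay above every vehicle array, while the 0.959 mg/kg arrays spread to both sides of the vehicle range.

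The log2 differences of Akr7a3 from vehicle were -0.04 at 0.1, 0.31 at 0.959, 0.38 at 9.59, 0.26 at 95.9 and 0.29 at 959 mg/kg, each with an SE of 0.16. At 0.959 mg/kg leaving out 1 array moved the value to between 0.20 (without replicate 5 of that group) and 0.47 (without its replicate 1), and to 0.21 without its replicate 2. Single arrays thus decided its size there. The smallest adjusted p of the 5 was 0.495, at 9.59 mg/kg, where the interval ran from 0.05 to 0.71. Its slope over dose rank was 0.07 (SE 0.03) per step with an adjusted p of 0.415. Akr7a3 varied more between arrays than Ephx1, with a residual SD of 0.30 against 0.12.

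The other 5 aldehyde dehydrogenases passed in none of the comparisons with vehicle, nor in the trend or the F-test. Aldh2, the mitochondrial enzyme that clears acetaldehyde, was the steadiest member. Its group means lay between 12.40 and 12.46, its 36 arrays spanned 12.26 to 12.55, and its residual SD (0.07) was larger than that of only 1.13% of probe sets. At 959 mg/kg Aldh2 differed from vehicle by -0.01, with an interval of -0.10 to 0.08.

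Aldh1b1, another mitochondrial enzyme, varied more. Its group means ran from 7.78 at 9.59 mg/kg to 7.98 at 0.1 mg/kg, and its arrays from 7.17 to 8.40. At 9.59 mg/kg, where its difference from vehicle was widest, it was -0.17 with an interval of -0.48 to 0.14, and leaving out 1 array moved it to between -0.28 (without replicate 1 of that group) and -0.05 (without its replicate 5). Each dose group of Aldh1b1 thus overlapped the vehicle range of 7.62 to 8.25.

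Aldh3a2 oxidises long-chain fatty aldehydes in the endoplasmic reticulum. Its lowest, median and highest array were 11.70, 11.92 and 11.97 at 959 mg/kg, against 11.81, 12.01 and 12.14 with vehicle, and the means of the other doses lay between 11.96 and 12.03. At 959 mg/kg the difference from vehicle was -0.13, with an interval of -0.25 to -0.0016 and an adjusted p of 0.819, and 2 of 6 arrays lay below every vehicle array. The groups thus overlapped.

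Aldh9a1 oxidises aminobutyraldehyde and takes part in carnitine synthesis. Its log2 differences from vehicle lay between -0.08 and 0.04, each with an SE of 0.07, and its arrays ran from 12.25 to 12.71. No dose group of Aldh9a1 was separated from vehicle.

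Aldh3a1, the AhR target, had a mean signal of 3.25. The median probe set stood at 5.16, above it, and no detection calls were used. Its lowest, median and highest array were 3.04, 3.23 and 3.35 at 959 mg/kg, against 3.10, 3.23 and 3.35 with vehicle. The log2 difference was -0.0023 with an interval of -0.15 to 0.15. Across the other doses it differed from vehicle by -0.02 to 0.10, and every dose group overlapped vehicle.

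**Figure D2:**
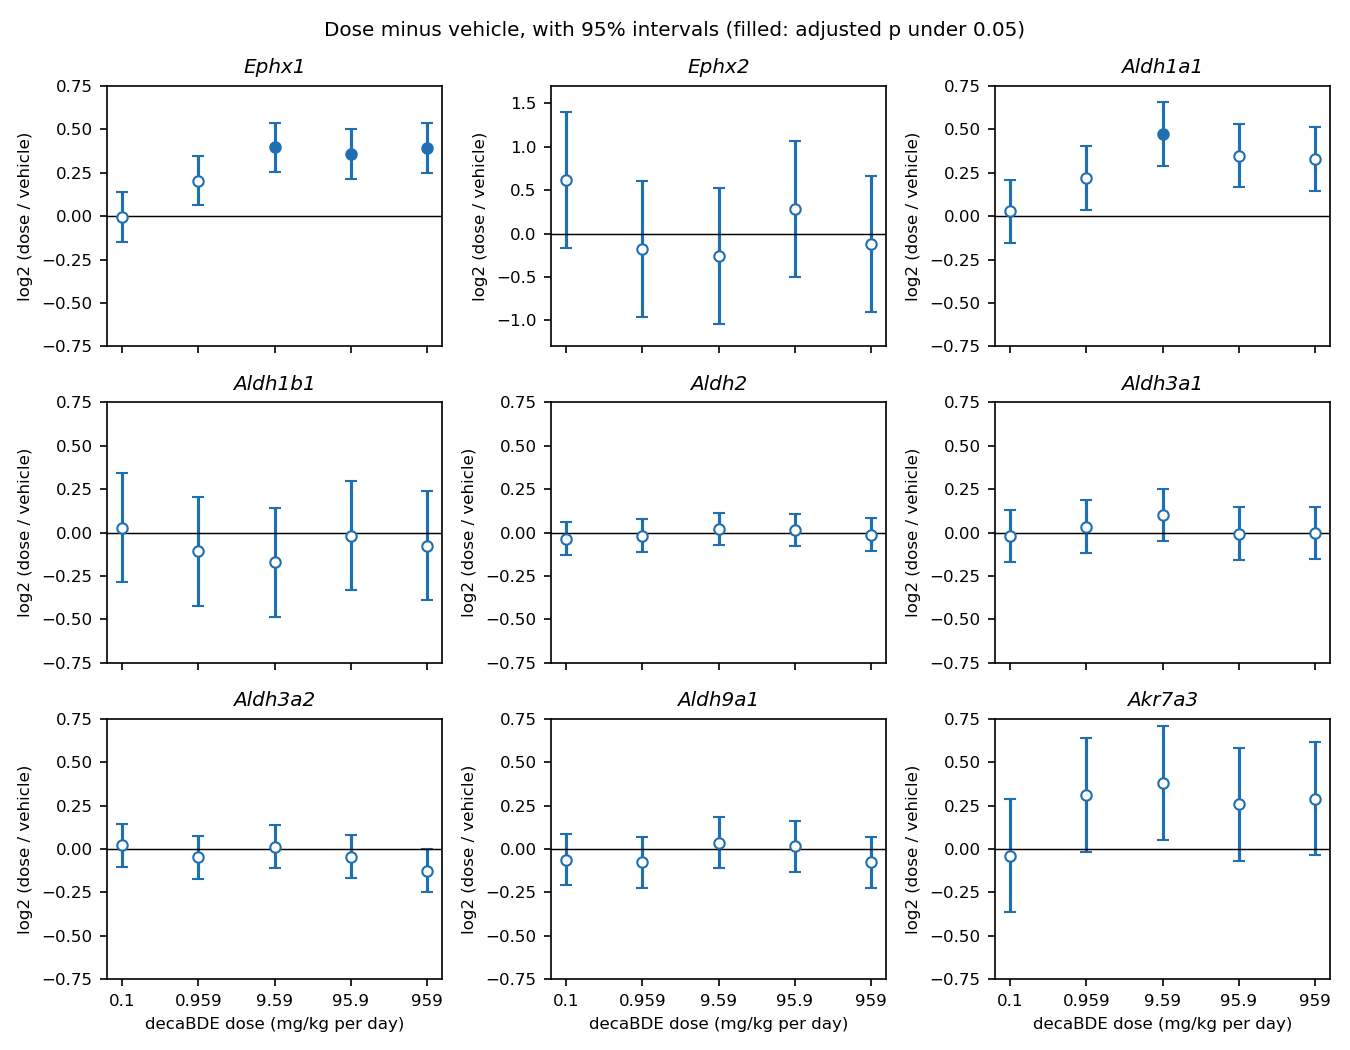
Log2 difference of each dose from vehicle (vertical axes) for the 9 measured members by daily dose in mg/kg (horizontal axes), with 95% intervals from limma. Filled points passed an adjusted p of 0.05: Ephx1 at 9.59, 95.9 and 959 mg/kg and Aldh1a1 at 9.59 mg/kg. The Ephx2 panel has a wider vertical range than the others.

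Of 48 other measured enzymes that remove epoxides, or that make or remove aldehydes and ketones, 0 passed at any dose in the limma fit. At 959 mg/kg 8 of the 48 had an unadjusted p under 0.05, where 7.19% of all genes did, and at 9.59 mg/kg 9 did, where 9.74% did. Of the other epoxide hydrolases 2 of 3 were measured, and at 959 mg/kg Lta4h, which makes leukotriene B4, differed from vehicle by -0.04 and Ephx4 by 0.03. Ephx4 had a vehicle mean of 3.07, below the median probe set at 5.16, so whether it was detected is unknown. Of the other aldehyde dehydrogenases 11 of 13 were measured, and their log2 differences at 959 mg/kg ran from -0.51 to 0.19 with a median of 0.05. Aldh18a1, which makes the precursor of proline and ornithine from glutamate, passed by the trend alone.

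Aldh18a1 fell by 0.10 (SE 0.02) per dose rank on the log2 scale, with an adjusted p of 0.0198. Its lowest, median and highest array were 5.50, 5.83 and 6.22 at 959 mg/kg, against 6.12, 6.48 and 6.61 with vehicle, so the groups overlapped. The difference there was -0.51 (SE 0.13, adjusted p = 0.175), and 4 of 6 arrays at 959 mg/kg lay below every vehicle array.

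The 13 of 15 other aldo-keto reductases measured had a median log2 difference of 0.03 at 959 mg/kg. Among them Akr1c14, a hydroxysteroid dehydrogenase, differed from vehicle by 0.22 (adjusted p = 0.683) and Akr1e2 by 0.16 (adjusted p = 0.725). The 5 of 7 alcohol dehydrogenases measured lay between -0.04 and 0.03 at that dose, with Adh6a at -0.04 and Adhfe1 at 0.03. Adh1 and Adh6 were not measured, and Adh6a had a vehicle mean of 3.65, below the median probe set. These classes showed no gene past the threshold by trend or F-test either.

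Aox1, an aldehyde oxidase, came closest at 9.59 mg/kg, where its log2 difference from vehicle was 0.25 (SE 0.06, adjusted p = 0.0838), with 5 of 6 arrays higher than any vehicle array. At 959 mg/kg it was 0.10, beside -0.11 for Aox4, whose vehicle mean of 3.59 was below the median probe set. In this class 3 of 5 oxidases were measured, without Aox2 and Aox3. Of the 14 of 15 carbonyl and short-chain reductases measured, Cbr4 differed from vehicle by 0.15 (adjusted p = 0.692) and Rdh16, a retinol dehydrogenase, by 0.36 (adjusted p = 0.807) at 959 mg/kg. Their median there was 0.03.

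**Figure D3:**
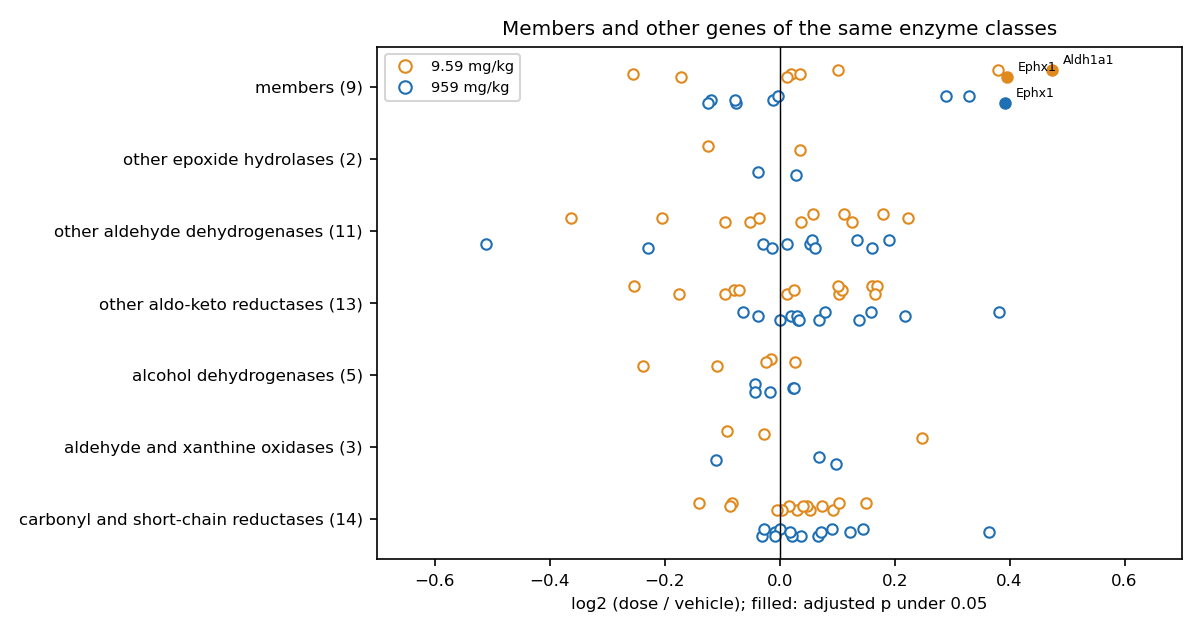
Log2 difference from vehicle (horizontal axis) at 9.59 and at 959 mg/kg for the 9 measured members and for the other genes of related enzyme classes (vertical axis, with the number measured). Each point is a gene, and filled points passed an adjusted p of 0.05. Ephx1 and Aldh1a1 are the filled points, and Aldh18a1 lies at -0.51 at 959 mg/kg.

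Genes known as targets of CAR and PXR were followed for comparison, in a list that also held the receptor genes Nr1i2 (PXR) and Nr1i3 (CAR). Cyp3a23-3a1, a drug-oxidising P450, was 0.58 log2 units above vehicle at 9.59 mg/kg (adjusted p = 2.85e-06) and 0.64 above it at 959 mg/kg (adjusted p = 1.06e-07). Ces2c, a carboxylesterase, was 0.95 above vehicle at both doses (adjusted p = 1.52e-05 and 7.81e-06). Por, which passes electrons to the P450 enzymes, was 0.49 and 0.58 above it (adjusted p = 0.0334 and 0.00473), and Cyp2c6v1 was 0.33 and 0.42 above it (adjusted p = 7.5e-05 and 4.5e-07). With only the arrays of the groups compared, Por did not pass at 959 mg/kg (adjusted p = 0.0878).

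In that list 6 of 8 measured genes passed at 9.59 and at 959 mg/kg, 5 at 95.9 mg/kg and 3 at 0.959 mg/kg, all higher. Of all probe sets, 0.116%, 0.11%, 0.0902% and 0.029% passed at 9.59, 959, 95.9 and 0.959 mg/kg. The list was chosen with earlier results of these data known, so its counts are a description. The receptor genes Nr1i2 and Nr1i3 passed at no dose, and the 6 were all targets. The 3 at 0.959 mg/kg were Cyp3a23-3a1, Cyp2c6v1 and Ugt2b1, a glucuronosyltransferase. Ephx1 and Aldh1a1 had not passed at that dose, and the difference between their responses and those of the 3 was not tested. Between 959 and 9.59 mg/kg 0 of the 8 passed.

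The AhR list held 7 measured genes, which were genes known as targets of AhR and the receptor gene Ahr itself. Of the 7, 1 (Cyp1a1) passed at 95.9 mg/kg and 3 (Cyp1a1, Cyp1a2 and Ahr) passed at 959 mg/kg, all higher. Of all probe sets, 0.0902% and 0.11% passed at these doses. Cyp1b1, Tiparp, Ahrr and Nqo1 passed at no dose. Cyp1a1, a P450 known for its induction by AhR, was 9.41 ± 0.57 at 959 mg/kg, against 4.69 ± 0.17 with vehicle (SD, n = 6 each), a log2 difference of 4.72 (adjusted p = 3.61e-17). At 95.9 mg/kg it was 1.63 above vehicle (adjusted p = 4.38e-05) and at 9.59 mg/kg 0.0024 above it. Cyp1a2 was 0.53 above vehicle at 959 mg/kg (adjusted p = 1.06e-07), and Ahr itself 0.90 (adjusted p = 0.0191). With vehicle the means of Ahr (4.78) and Cyp1a1 lay below the median probe set at 5.16, and at 959 mg/kg the Ahr mean was 5.68. The call of Ahr was lost, with adjusted p-values up to 0.0921, when vehicle replicate 3 or 5 or 959 mg/kg replicate 3, 4 or 5 was left out, and with 0.0853 when only the arrays of the groups compared were fitted. Aldh3a1, given above, stayed below the median probe set on all arrays of the same dose.

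Among genes known as targets of NRF2, 0 of 12 measured passed at any dose in the limma fit. By the trend 3 passed (Nqo1, Abcc2 and Gsr), against 0.393% of all probe sets. At an unadjusted p under 0.05 were 5 of the 12 at 9.59 mg/kg and 4 at 959 mg/kg, where 9.74% and 7.19% of all genes were. At 9.59 mg/kg 11 of the 12 were above vehicle, and at 959 mg/kg 9 were. Nqo1, a quinone reductase shared with the AhR list, was 0.98 above vehicle at 959 mg/kg (SE 0.22, adjusted p = 0.0575), with arrays from 7.80 to 9.98, against 6.97 to 7.56 with vehicle. Nqo1 passed there with dim probe sets left out (adjusted p = 0.0372), with 1 probe set per gene (0.0398) and without replicate 1, 5 or 6 of the 959 mg/kg group, and without replicate 1 its difference was 0.65. The count of 0 at 959 mg/kg thus depended on these settings. Gclc, which limits glutathione synthesis, differed from vehicle by -0.04. Of 7 measured targets of the fatty acid sensor PPARA 0 passed at any dose, with Cyp4a1 at -0.41 at 959 mg/kg. At the same unadjusted level were 3 of the 7 at 9.59 mg/kg and 4 at 959 mg/kg, against 9.74% and 7.19% of all genes. By the trend 2 of the 7 passed, against 0.393% of all probe sets: Cyp4a3 fell and Cyp4a8 rose. Cyp4a3 passed at 959 mg/kg after quantile normalization again (-0.41, adjusted p = 0.0455) and with dim probe sets left out (-0.39, adjusted p = 0.0456).

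**Figure D4:**
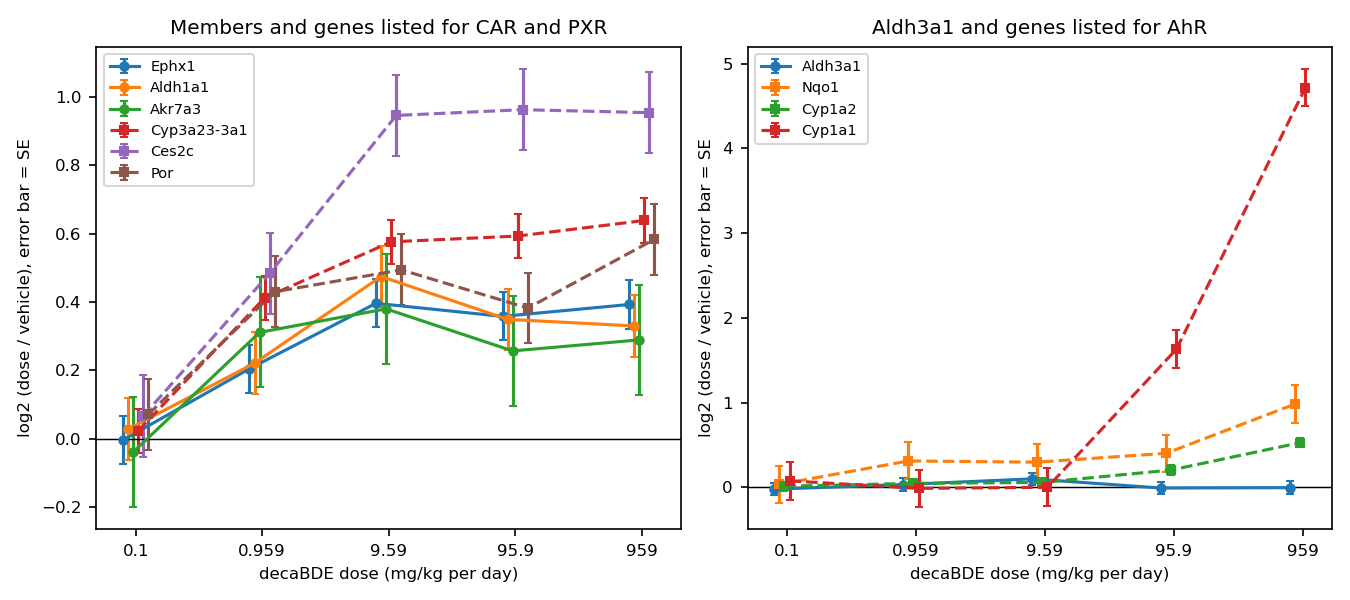
Log2 difference from vehicle (vertical axes) by daily dose in mg/kg (horizontal axes), with limma's SE. The left panel sets Ephx1, Aldh1a1 and Akr7a3 (circles, solid lines) beside CAR and PXR genes (squares, dashed lines), and the right panel sets Aldh3a1 beside AhR genes. Cyp1a1 reaches 4.72 at 959 mg/kg while Aldh3a1 lies between -0.02 and 0.10 at every dose.

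The genes whose pattern over the 36 arrays was most like that of Ephx1, among 9590 genes at or above the median level, were Ces2c (Pearson's r = 0.865), Cyp3a23-3a1 (0.848), Ugt2b1 (0.823), Abcc3 (0.807) and Ddc (0.807). Abcc3 is an efflux pump of the basolateral membrane and Ddc is the aromatic amino acid decarboxylase. Those most like Aldh1a1 were Ephx1 (0.792), Abcc3 (0.787), Ces2c (0.769), Cyp3a23-3a1 (0.754) and Zwint (0.722), a kinetochore protein. These correlations describe arrays that share dose groups. Over deviations from the group means, r for Ephx1 was 0.557 with Ddc, 0.463 with Ces2c, 0.463 with Abcc3, 0.35 with Cyp3a23-3a1 and 0.312 with Ugt2b1. With Aldh1a1 it was 0.483. For Akr7a3, r was 0.637 with Ephx1 and 0.538 with Aldh1a1, and over deviations it was 0.532 and 0.321.

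Markers of the cell types that whole liver can hold were read beside these results. Hepatocyte markers were at a mean log2 signal of 13.57 to 13.71 on the arrays at 959 mg/kg, against 13.59 to 13.76 with vehicle, and 0 of 9 measured markers passed at any dose in limma (1 at an unadjusted p under 0.05 at 959 mg/kg). The defining hepatocyte signals were thus present in both groups. Of 8 pericentral markers, 7 were above vehicle at 959 mg/kg with a median of 0.09. They ran from -0.03 for Glul, the glutamine synthetase of the innermost pericentral cells, to 0.53 for Slc1a2. Slc1a2 and Cyp1a2 passed, 2 of 8, against 0.11% of all probe sets. Cyp1a2 is also in the AhR list above, so its call is not particular to the pericentral list. The call of Slc1a2 (adjusted p = 0.0488) was lost in 26 of 36 removals of 1 array, with adjusted p-values up to 0.192. Of the 7 periportal markers 0 passed in limma (4 at an unadjusted p under 0.05 at 9.59 mg/kg and 2 at 959 mg/kg), with a median of -0.23 at 9.59 mg/kg and -0.13 at 959 mg/kg, where Hal and Gls2 each differed by -0.21.

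Non-hepatocyte lists gave no call at any dose in limma. Of all genes, 3.72% had an unadjusted p under 0.05 at 0.1 mg/kg, 6.75% at 0.959, 9.74% at 9.59, 7.85% at 95.9 and 7.19% at 959 mg/kg, and the counts of markers at that level are given against these shares. All 7 Kupffer cell markers were below vehicle at every dose, with medians of -0.45, -0.49, -0.30, -0.15 and -0.19 in order of dose. At that level 3 of 7 passed at 0.1 mg/kg, 5 at 0.959 mg/kg and 0 at the 3 upper doses. Their mean signal ran from 8.06 to 8.83 at 959 mg/kg, against 7.98 to 9.02 with vehicle.

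Stellate cell markers had medians of 0.19 at 9.59, 0.39 at 95.9 and 0.08 at 959 mg/kg, with 0, 5 and 0 of 8 at an unadjusted p under 0.05. Cholangiocyte markers, of the cells that line the bile ducts, had medians of -0.0046, 0.18 and 0.28 at these doses, with 1, 1 and 3 of 5 at that level, and Krt7 stood at 0.33 and Krt19 at 0.59 at 959 mg/kg. Endothelial markers had medians of -0.18 at 0.959, -0.13 at 9.59 and -0.09 at 959 mg/kg, with 3, 1 and 0 of 6 at that level. The dose of the widest median thus differed between these lists. Lymphocyte markers had medians of -0.16, -0.15 and -0.11 at 0.959, 9.59 and 959 mg/kg, with 3, 1 and 0 of 7 at that level. Erythroid and exocrine pancreas markers had medians of -0.05 and 0.04 at 9.59 mg/kg, with 0 of 3 and 1 of 6 at that level, and of -0.09 and 0.03 at 959 mg/kg, with 0 of either. The part of these cell types in the changes of Ephx1 and Aldh1a1 was not tested. Array medians over all probe sets ran from 5.12 to 5.21, and replicate 6 of the 0.1 mg/kg group had the lowest array weight (0.517). Leaving out that array moved neither the calls of Ephx1 nor that of Aldh1a1.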

How the data were processed

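RNA of 36 rat liver samples was hybridised to 3' expression arrays, 1 array per sample. The deposited values are log2 signals that the authors made with RMA in the affy package, per the submitters' processing notes, whose version is not given in the sources used here. They ran from 2.02 to 15.0 with 0 missing. Groups follow the titles, and 0 sample columns went unused. Leaving out 57 array controls reduced 31099 probe sets to those tested. Of these, 20826 carried 1 symbol, 436 carried several and 9780 carried none. Where a gene had several probe sets, the one with the highest mean was used (14217 genes). Array files name no genome build, so promoter windows alone carry coordinates.

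All 31042 probe sets were fitted in limma 3.58.1 (R 4.3.3) with lmFit and eBayes, 1 mean per group and 30 residual degrees of freedom. Contrasts were two-sided. Benjamini-Hochberg adjustment ran over every probe set of a comparison, and calls were made below 0.05. Intervals are at 95%, and the number of arrays limits the precision. The series' design text names the maanova package, in whose place limma was used. The script was tested on simulated data.

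Members and gene lists were chosen with earlier results of these data known. Named were all members, genes of the lists that passed or else up to 2 with the smallest p at 959 mg/kg, 9 reference genes, and the 5 genes most like each member that passed. Alternatives were quantile normalization again, array medians subtracted, dim probe sets left out, 1 probe set for each gene, array weights, unmoderated variances, robust variances with an intensity trend, a replicate block, only the groups compared, each array left out, other dose scales and, added after seeing the data, the 2 arrays of high Ephx2 left out. A choice among probe sets of a member was not run, since each had 1.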

Additional observations from a re-analysis of the deposited data

Results flagged for a closer look

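Within each dose group, the highest or lowest array of a member was singled out where its gap to the nearest of the other 5 arrays took up too much of the group's range by Dixon's test. Chance gives about 1 such group in 20, and 7 of 54 combinations of member and group were singled out, in 3 members. Ephx2 was the case in 4 of them. Replicate 1 of the 0.1 mg/kg group had an Ephx2 signal of 9.20 on the log2 RMA scale, 2.34 (5.07-fold) above the next array of its group at 6.86. Replicate 4 of the 95.9 mg/kg group had 9.10, which was 3.02 (8.10-fold) above the next at 6.09. The other cases of Ephx2 were small: 5.87 in replicate 2 of the 0.959 mg/kg group, which was 0.19 below the next, and 6.05 in replicate 6 of the 9.59 mg/kg group, which was 0.09 above the next. Aldh3a2 was low in replicate 1 of the 0.959 mg/kg group, at 11.78 against 11.95 in the next array. Aldh9a1 was high in replicate 2 of the 0.1 mg/kg group, at 12.71 against 12.42, and low in replicate 3 of the 9.59 mg/kg group, at 12.27 against 12.52. The cause of these values was not tested.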

How the results depend on the processing

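The direction and call of Ephx1 at 9.59 and at 959 mg/kg held under 9 of 10 alternatives and under every removal of 1 array, and the call of Aldh1a1 at 9.59 mg/kg under all 10 but not every removal. When only the groups compared were fitted, members called numbered 1 at 9.59, 0 at 95.9 and 0 at 959 mg/kg, and all probe sets called numbered 1, 19, 16 and 13 at 0.959, 9.59, 95.9 and 959 mg/kg, against 9, 36, 28 and 34 (fewer arrays enter that fit), with 1 against 2 between 959 and 95.9 mg/kg. With 1 probe set per gene, 5 were called at 0.959 mg/kg. With dose in mg/kg, 0 members and 9 probe sets (against 122) passed the trend. The F-test called 1 member after quantile normalization again, with the replicate block and without the 2 arrays of high Ephx2, and that removal also left 0 members at 95.9 mg/kg (Ephx1 adjusted p = 0.079). The cause was not tested. Replicate numbers of the titles did not pair the arrays: deviations from group means correlated at a mean r of -0.022 over 90 pairs with the same number (-0.239 to 0.375) and 0.0045 over 450 other pairs, and 6 of 36 arrays were closest to an array of their own number. With the replicate block 2, 1 and 1 members passed at 9.59, 95.9 and 959 mg/kg, and the F-test adjusted p of Aldh1a1 was 0.052.

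Sign changes arose in 56 of 2065 recomputed member values, in 17 results, past the threshold in neither setting. After quantile normalization again, the log2 difference was -0.00014 for Aldh2 and -0.0052 for Aldh3a2 at 9.59 mg/kg, and -0.013 for Aldh2, 0.016 for Aldh3a1 and -0.017 for Aldh9a1 at 95.9 mg/kg. With array medians subtracted it was 0.00075 for Ephx1 at 0.1 mg/kg, 0.0099 for Aldh3a1 at 95.9 mg/kg and 0.00497 for Aldh3a1 at 959 mg/kg. With array weights it was -0.0011 for Aldh1a1 at 0.1 mg/kg and 0.0017 for Aldh3a1 at 959 mg/kg. Without the 2 arrays of high Ephx2 it was -0.025 at 0.1 mg/kg and 0.014 at 95.9 mg/kg for Aldh1b1 and -0.24 for Ephx2 at 95.9 mg/kg.

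Leaving out 1 array at a time, members called ranged from 1 to 2 at 9.59 mg/kg and 0 to 1 at 95.9 mg/kg. At 0.1 mg/kg the differences ranged from -0.096 to 0.064 for Akr7a3, -0.016 to 0.074 for Aldh1a1, -0.039 to 0.088 for Aldh1b1, -0.052 to 0.0038 for Aldh3a1, -0.017 to 0.057 for Aldh3a2 and -0.051 to 0.026 for Ephx1. At 0.959 mg/kg Aldh3a1 ranged from -0.0070 to 0.0905, and at 9.59 mg/kg Aldh3a2 from -0.026 to 0.044. At 95.9 mg/kg the ranges were -0.084 to 0.043 for Aldh1b1, -0.0404 to 0.038 for Aldh3a1, -0.0079 to 0.051 for Aldh9a1 and -0.24 to 0.40 for Ephx2. At 959 mg/kg they were -0.18 to 0.0082 for Aldh1b1, -0.037 to 0.022 for Aldh2 and -0.029 to 0.036 for Aldh3a1. No detection calls were used, so signal over background is unknown, which among the members limits Aldh3a1 most.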

Other observations

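Akr7a2, the reductase most closely related to Akr7a3, was looked at after the values were seen. Its pattern over the 36 arrays gave a Pearson's r of 0.721 with Akr7a3, and 0.629 over deviations from the group means, as a description. Akr7a2 differed from vehicle by 0.17 on the log2 scale at 9.59 mg/kg (limma adjusted p = 0.387) and by 0.14 at 959 mg/kg (adjusted p = 0.77), with an SE of 0.06 at each dose. Neither reductase passed in any comparison.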
